A study of Mus musculus with 10 samples.

Results

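The HoxB genes, Hoxb1 to Hoxb9 and Hoxb13, are 1 of the Hox clusters of the mouse and lie in a row on chromosome 11. They were taken by gene symbol, and all 10 were present among 18502 genes in the table of the Eed libraries and among 18344 genes in the table of the Ring1 libraries (19090 genes in all). RNA was sequenced from interfollicular epidermis of back skin, the epidermis between the hair follicles, sorted at postnatal day 71 as EpCAM-positive, Sca1-positive cells with high α6-integrin. The groups were Eed -/- epidermis (Eed KO, n = 3) with its own control (n = 3), and Ring1a-/- Ring1b-/- epidermis (Ring1a/b 2KO, n = 2) with its own control (n = 2). All groups shared the same treatment, 4OH-tamoxifen on the skin, 100 µl a day of a 20 mg/ml solution for 4 days from day 50. Tamoxifen switches on an inducible Cre recombinase, but the sources used here do not give the promoter behind the Cre, the exons removed or the alleles of the controls. Nothing states whether each library came from a separate mouse, so p-values measure the spread between these libraries, which may be technical.

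Hox genes encode homeodomain transcription factors that give cells their position along the body axis. Their order on the chromosome follows the order of their domains in the embryo, with the genes of the anterior body at the 3′ end of the cluster and those of the tail at the 5′ end. Polycomb repressive complex 2, of which Eed is a subunit that reads and propagates the mark, trimethylates lysine 27 of histone H3, and Polycomb repressive complex 1, whose catalytic subunits are Ring1a (gene Ring1) and Ring1b (gene Rnf2), ubiquitinates histone H2A. Hox clusters are classic targets of both complexes, and adult skin keeps the Hox code of its place on the body. Trunk skin lies in the domain of the central and anterior HoxB genes, whereas Hoxb13 belongs to the tail, hindgut and prostate.

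In the mm10 genome (GENCODE M21 annotation) the cluster ran over 173.9 kb, chr11:96194316-96368256, with every gene on the plus strand. Hoxb13 was the 5′ end (ENSMUSG00000049604.3, chr11:96194316-96197447), and 74.0 kb without another HoxB gene separated it from Hoxb9 (ENSMUSG00000020875.9, chr11:96271457-96276595). From there the genes followed each other with gaps of 1.3 to 12.1 kb as Hoxb8 (ENSMUSG00000056648.5, chr11:96281905-96285315), Hoxb7 (ENSMUSG00000038721.8, chr11:96286623-96290162), Hoxb6 (ENSMUSG00000000690.5, chr11:96292476-96301569), Hoxb5 (ENSMUSG00000038700.4, chr11:96303336-96306121), Hoxb4 (ENSMUSG00000038692.8, chr11:96318267-96321638), Hoxb3 (ENSMUSG00000048763.11, chr11:96323326-96347930), Hoxb2 (ENSMUSG00000075588.6, chr11:96350525-96354012) and, at the 3′ end, Hoxb1 (ENSMUSG00000018973.2, chr11:96365752-96368256). The antisense gene Hoxb5os spans Hoxb6 and Hoxb5, Gm11536 lies in Hoxb3, and Hoxb3os overlaps Hoxb3 and Hoxb2. Whether the libraries keep the strand is not given in these sources, and reads of such pairs cannot be told apart. The microRNA genes of the cluster were not analysed here.

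Promoter sequence from RefSeq (GRCm38.p6, the same assembly as mm10), 250 bases before to 50 bases after the start, was at hand for 3 of the 10 genes, Hoxb8, Hoxb4 and Hoxb1. They are shown as examples from the HoxB genes that were transcribed in controls as well as knockouts. Capitals mark the letters TGATNNAT, searched on both strands with no other motif, a form of the bipartite site that Hox proteins bind together with Pbx partners. The Hoxb8 window is chr11:96281655-96281954, the Hoxb4 window chr11:96318017-96318316 and the Hoxb1 window chr11:96365508-96365807, all on the plus strand.
Hoxb8: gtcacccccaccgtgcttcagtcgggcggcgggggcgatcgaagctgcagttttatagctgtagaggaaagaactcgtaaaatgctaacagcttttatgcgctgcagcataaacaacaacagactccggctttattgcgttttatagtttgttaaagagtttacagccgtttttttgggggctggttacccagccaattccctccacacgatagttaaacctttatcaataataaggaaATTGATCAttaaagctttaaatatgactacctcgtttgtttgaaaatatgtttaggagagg
Hoxb4: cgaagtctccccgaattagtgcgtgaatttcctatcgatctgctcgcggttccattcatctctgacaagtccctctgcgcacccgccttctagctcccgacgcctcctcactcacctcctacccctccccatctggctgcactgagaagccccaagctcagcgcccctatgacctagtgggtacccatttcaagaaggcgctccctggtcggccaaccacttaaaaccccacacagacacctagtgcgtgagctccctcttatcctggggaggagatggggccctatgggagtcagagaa
Hoxb1: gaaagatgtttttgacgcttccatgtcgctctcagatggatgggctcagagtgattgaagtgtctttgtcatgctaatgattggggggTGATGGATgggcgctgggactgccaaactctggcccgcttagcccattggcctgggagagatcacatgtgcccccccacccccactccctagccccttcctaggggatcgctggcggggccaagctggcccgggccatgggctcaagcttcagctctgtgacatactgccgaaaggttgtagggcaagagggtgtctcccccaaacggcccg
The Hoxb8 window held 13 CpG dinucleotides, the Hoxb4 window 14 and the Hoxb1 window 10, against a median of 7 over 32851 mouse promoters of the same length. GC content was 42.3% at Hoxb8, 58.0% at Hoxb4 and 59.3% at Hoxb1. The Pbx and Hox letters occurred once at Hoxb8, on the minus strand, and once at Hoxb1, on the plus strand, and not in the Hoxb4 window, and 8.85% of all promoters held them. Hoxb1 is known for a control element upstream of its own gene, where Hoxb1 protein binds with Pbx. These matches describe letters only, since no binding or histone mark was measured in these libraries.

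The values are the authors' normalised read counts, which are whole reads multiplied by 1 factor per library, so that the reads behind them could be recovered. Recovered reads ran from 31699979 to 40701183 a library in the Eed table, and were 19814853 and 6237389 in the Ring1a/b 2KO against 25158144 and 7162907 in its controls. Mitochondrial genes took 2.34% to 3.58% of the values in the Eed table, and 8.16% and 12.7% in the Ring1a/b 2KO against 6.51% and 7.28% in its controls. All 9 basal keratinocyte markers listed were above 0 in every library, which does not show equal levels. The log2 fold change (limma, described below) was above 0 for 5 of 9 in the Eed KO and for 2 of 9 in the Ring1a/b 2KO. Itga6, the gene of α6-integrin, had 9738 and 9343 in the Ring1a/b 2KO, against 17301 and 13462. The summed basal markers overlapped between knockout and control in both tables. Counts over the whole gene did not check the labels, since RNA of a gene with deleted exons may still be counted: Eed read 1412, 1143 and 1340 in the Eed KO against 1845, 1319 and 1706 in its controls, Rnf2 read 720.1 and 529 in the Ring1a/b 2KO against 675 and 669.7, and Ring1 read 104.5 and 115 against 66.2 and 211. Levels in the 2 tables were normalised apart and are compared only within a table.

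Of the 10 genes, 9 were transcribed in the epidermis of controls and knockouts alike, with means 0.779 to 1.70 times those of the controls, and 1, the tail gene Hoxb13, was at or near 0 in both sets of controls and was read in 2 of 3 Eed KO and both Ring1a/b 2KO libraries. In the test used throughout (limma on log2 of the count plus 1, adjusted over all genes), 0 of 10 HoxB genes passed an adjusted p of 0.05 in the Eed KO, where the share over all genes tested was 0% (762 at an unadjusted p under 0.05), and 0 of 10 in the Ring1a/b 2KO, where it was 0.0392%. At an unadjusted p under 0.05, Hoxb13 alone passed in each comparison, against a background of 3.4% of all genes higher in the Eed KO and 5.62% higher in the Ring1a/b 2KO. In the authors' deposited tables, which hold DESeq2 results, 0 of 10 were called in the Eed KO, where 0.707% of genes were called higher, and 1 of 10, Hoxb13, in the Ring1a/b 2KO, where 1.18% were. DESeq2 run on the recovered reads gave the same HoxB calls, with 0.761% and 1.49% of genes called in either direction. By edgeR, none of the 9 HoxB genes it tested in the Eed KO and none of 10 in the Ring1a/b 2KO were called, nor was any other gene (0%), with 694 and 1404 genes at an unadjusted p under 0.05.

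**Figure D1:**
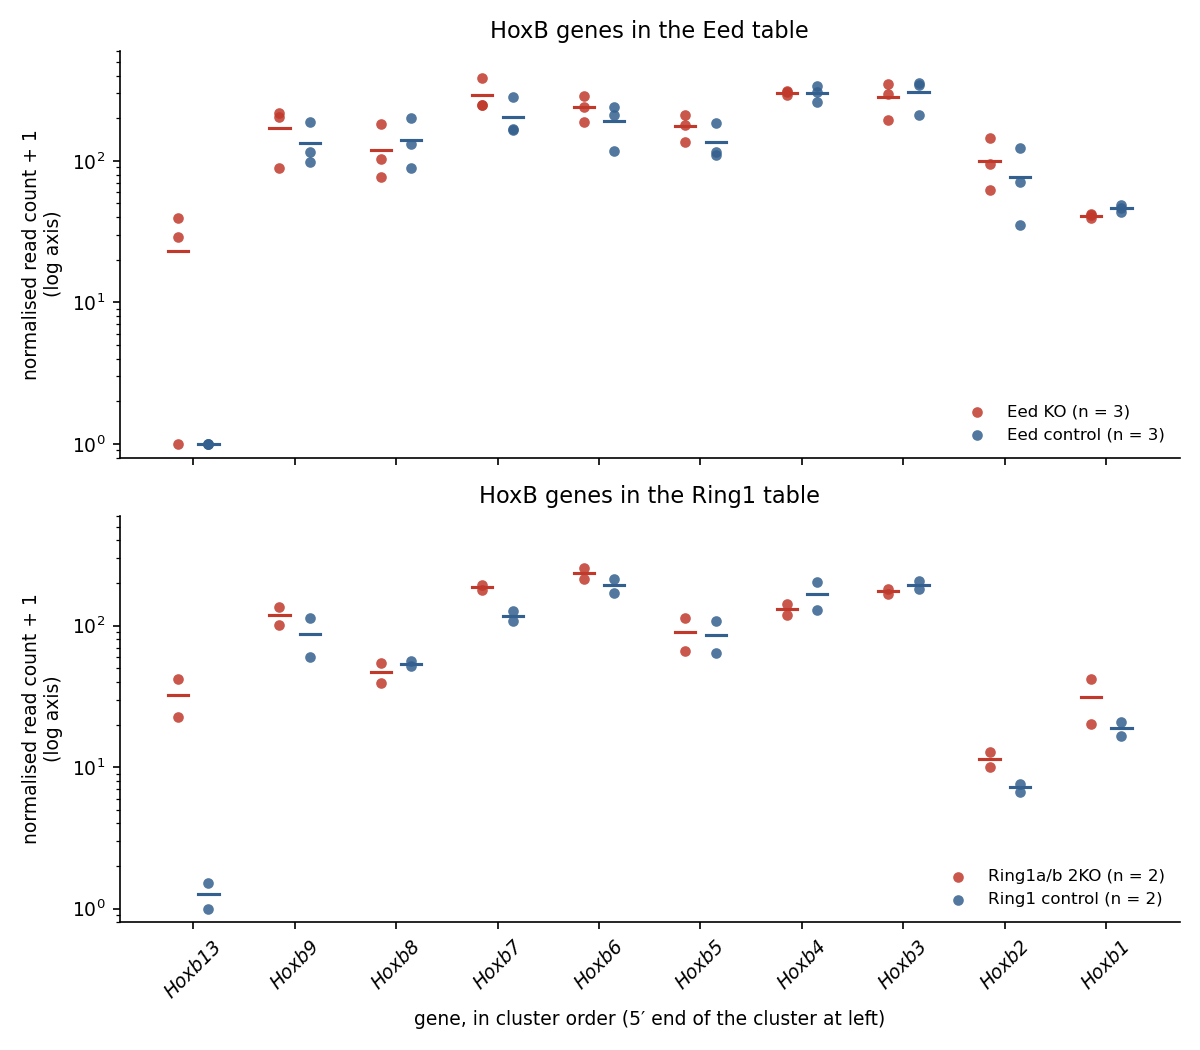
Normalised read counts (plus 1, log axis) of the 10 HoxB genes in cluster order, Hoxb13 at the left, for the Eed libraries and the Ring1 libraries, with a point for each library and a line at each group mean. Knockout and control points lie among each other for most genes, and Hoxb13 stands apart, with up to 41.2 in knockouts and at most 0.521 in controls.

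Hoxb13, a regulator of tail growth and of the prostate and hindgut, had 38.4, 28.0 and 0 normalised read counts in the Eed KO, and 0 in all 3 controls. These were 32, 27 and 0 reads against none. The mean of the Eed KO was 7.38 times the level that 3 reads per control library would give, a lower limit of the ratio for counting error only. The third Eed KO library lay with the controls, and so the groups overlapped. The limma log2 fold change was 3.39 ± 1.48 (SE), with a 95% interval of 0.05 to 6.73 (limma adjusted p = 0.989), and the authors' deposited table gave 6.91 with an adjusted p of 0.936.

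Reads of Hoxb13 were also found in the Ring1a/b 2KO, where it had 21.6 and 41.2 normalised read counts, against 0.521 and 0 in the controls. That is 35 and 23 reads against 1 read and none, a ratio of 67.2 after scaling for depth, with a 95% counting interval of 11.6 to 2700.2. Both knockout libraries were above both controls. Here the limma log2 fold change was 4.65 ± 1.07 (SE), with an interval of 2.24 to 7.06 (limma adjusted p = 0.207). The authors' deposited table gave 6.20 ± 1.65 (SE) and an adjusted p of 0.0173, its only call among the HoxB genes. Hoxb13 passed the filter on low values in both tables only through its knockout libraries.

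The call on Hoxb13 was also read without each library, a check chosen after seeing the data, with DESeq2 on the recovered reads, which gave the authors' values back. In the Eed KO, leaving out the third knockout library gave a log2 fold change of 7.49 and an adjusted p of 0.00584, a call that the full set did not give. That library is the only Eed KO library without Hoxb13 reads, so leaving it out could only strengthen the result, and the call adds no support. In the Ring1a/b 2KO every such run leaves 1 library in a group, whose spread is taken from the other group, so a lost call says little about stability. The log2 fold change stayed between 5.71 and 6.68 in these runs, with adjusted p of 0.831 without the second knockout library, 0.563 without the first control and 0.211 without the second control, and none assigned without the first knockout library.

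Summed markers of other cells also differed between the groups. The summed fibroblast markers were 354 to 959 in the Eed KO against 62.9 to 259 in controls, and 158 to 787 in the Ring1a/b 2KO against 87.5 to 123, with 4 of 5 tested genes above their controls in the Eed KO and 4 of 4 in the Ring1a/b 2KO. Dcn, a dermal proteoglycan, had 863, 306 and 129 in the Eed KO against 19.5, 34.5 and 74.8 in controls. The Ring1a/b 2KO had 691 and 48.4 against 35.4 and 56.5. Dcn alone thus made most of the sums of 959 and 354 in the first and second Eed KO libraries. The same held for the sum of 787 in the first Ring1a/b 2KO library. These sums therefore do not show a rise of the fibroblast list as a set. The collagen gene Col1a1 had 46.8, 28.0 and 78.9 in the Eed KO against 33.1, 19.3 and 70.8, and 51.9 and 48.4 in the Ring1a/b 2KO against 11.5 and 24.9. Col3a1, another collagen gene of fibroblasts, had 0, 0 and 81.3 in the Eed KO against 2.92, 1.015 and 17.2, and 1.85 and 0 in the Ring1a/b 2KO against 5.21 and 1.66. Dcn was thus highest in the Eed KO libraries that held Hoxb13 reads, while Col1a1 and Col3a1 were highest in the third, which held none.

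Merkel cell markers summed to 93.1 to 341 in the Eed KO against 40.6 to 76.0, and to 172 to 203 in the Ring1a/b 2KO against 16.7 to 34.9, with 4 of 5 and 3 of 3 tested genes above their controls. Isl1, a neuronal and Merkel cell transcription factor, had 191, 121 and 26.8 in the Eed KO against 2.92, 8.12 and 3.03, and 33.4 and 138 in the Ring1a/b 2KO against 2.08 and 4.99. The Merkel cell keratin Krt20 had 2.40, 0 and 0.789 in the Eed KO against 0, 0 and 4.05, and 0.618 and 0 in the Ring1a/b 2KO against 0.521 and 9.97. Krt18, another listed keratin, had 50.4, 10.4 and 14.2 in the Eed KO against 0.974, 2.03 and 8.09. In the Ring1a/b 2KO it had 96.4 and 32.3 against 5.21 and 3.32. Piezo2, also listed, had 18.0, 15.6 and 37.1 in the Eed KO against 62.3, 29.4 and 46.5. Its Ring1a/b 2KO values were 31.5 and 28.7 against 8.33 and 16.6. Isl1 and Krt18 therefore lay above their controls in every knockout library. Krt20 did not, and its highest value was that of the second Ring1 control. Isl1 made most of the sum in the first and second Eed KO libraries. In the Ring1a/b 2KO the sums were also higher for hair follicle (1883 to 2569.9 against 1133 to 1303, 5 of 7 genes), melanocyte (342 to 629.8 against 239.6 to 311, 5 of 6) and muscle and adipocyte markers (74.2 to 98.6 against 41.2 to 64.8, 3 of 3). The sum of the Schwann cell and neuron markers was lower there, 329.9 to 334 against 510.2 to 549.6, through Mbp, with 312 and 255 against 517 and 489, while 2 of 3 tested genes were above their controls. The part of these cells in the Hoxb13 result was not tested, and in sorted bulk tissue fewer cells of a type and less RNA per cell cannot be told apart.

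Next in the row, Hoxb9, Hoxb8 and Hoxb7 are trunk genes. Hoxb9, which patterns the ribs, had 203, 218 and 87.6 normalised read counts in the Eed KO, against 97.4, 186 and 114 in its controls, while the Ring1a/b 2KO had 100.1 and 134, against 59.4 and 113. The groups overlapped in both tables. limma gave a log2 fold change of 0.30 ± 0.45 (SE, adjusted p = 0.989) in the Eed KO and 0.50 ± 0.45 (adjusted p = 0.743) in the Ring1a/b 2KO.

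Hoxb8, whose loss makes mice groom away their hair, had 75.5, 180.5 and 102 normalised read counts in the Eed KO, against 131, 199 and 88.0 in its controls. It had 38.3 and 53.8 in the Ring1a/b 2KO, against 50.5 and 54.8. Its group means were 0.855-fold and 0.874-fold those of the controls, with overlapping libraries, and the sign turned without the second control or the first knockout library in the Eed comparison, and without the first knockout library in the Ring1 comparison. By limma, the log2 fold changes were −0.24 ± 0.45 (SE, adjusted p = 0.989) and −0.21 ± 0.50 (adjusted p = 0.917).

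Hoxb7, a gene of the developing kidney duct and of the trunk, had the highest mean per kb of transcript in 3 of the 4 groups. It read 381, 246 and 245 in the Eed KO, against 164, 283 and 166 in its controls, while the Ring1a/b 2KO had 179 and 194, against 126 and 106. Only the Ring1a/b 2KO libraries were all above their controls. The ratio of means was 1.42 in the Eed KO and 1.60 in the Ring1a/b 2KO. The interval of the log2 fold change held 0 in both, −0.24 to 1.29 (limma adjusted p = 0.989) and −0.06 to 1.42 (limma adjusted p = 0.519), and neither increase was called.

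In the middle of the cluster, none of Hoxb6, Hoxb5 and Hoxb4 was called. Hoxb6, expressed in lateral mesoderm and trunk, had 241, 287 and 186 normalised read counts in the Eed KO, against 241, 117 and 209 in controls, while the Ring1a/b 2KO had 213 and 256, against 170.3 and 214. Hoxb5, a gene of the neural crest of the gut and of blood stem cells, had 177, 211 and 134 in the Eed KO, against 184, 114 and 108, and 64.9 and 113 in the Ring1a/b 2KO, against 63.0 and 106. Hoxb4, known for expanding blood stem cells, had 291, 304 and 312 in the Eed KO, against 338, 258 and 307, and 140.3 and 118 in the Ring1a/b 2KO, against 204 and 128. For all 3 genes the libraries of knockout and control overlapped in both tables.

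Hoxb4 had the narrowest interval of the 10 genes in the Eed KO. Its mean was 302 ± 10.2 in the Eed KO and 301 ± 40.5 in its controls (SD, n = 3 each), a log2 fold change of 0.01 with a 95% interval of −0.55 to 0.58. For the Ring1a/b 2KO the interval was −1.15 to 0.50. Hoxb6 had log2 fold changes of 0.38 (−0.44 to 1.19) and 0.29 (−0.38 to 0.96), and Hoxb5 of 0.38 (−0.43 to 1.18) and 0.06 (−1.005 to 1.13), in the Eed KO and the Ring1a/b 2KO in turn. Changes within these intervals remain compatible with the data, at 3 and 2 libraries a group.

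At the 3′ end lie the genes of the hindbrain and neck. Hoxb3, which acts in the hindbrain and in the pharyngeal glands, had 192, 351 and 296 normalised read counts in the Eed KO, against 356, 343 and 211, and 182 and 167 in the Ring1a/b 2KO, against 179 and 204. Its groups overlapped, with log2 fold changes of −0.13 (−0.88 to 0.63) and −0.14 (−0.82 to 0.54). Hoxb2, needed for facial motor neurons, had 93.5, 144 and 60.7 in the Eed KO, against 70.1, 122 and 34.4, again with overlap and with a log2 fold change of 0.49 (−0.74 to 1.71).

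In the Ring1 table Hoxb2 was read rarely, at 11.7 and 8.97 normalised read counts in the Ring1a/b 2KO, against 5.73 and 6.65 in its controls. These were 24 reads against 15, so the separation of the groups rested on few reads, and the interval of the log2 fold change, −1.39 to 2.69, was wide (0.65, limma adjusted p = 0.843). Hoxb2 took 0.655% to 1.21% of the summed HoxB counts in the Ring1 table and 2.68% to 7.31% in the Eed table. Hoxb6 took the larger share in the Ring1 table, 19.5% to 22.7%, against 7.004% to 16.3% in the Eed table. Controls as well as knockouts showed both differences, and the experiments and their separate processing cannot be told apart.

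Hoxb1, the most 3′ gene and the one that sets the identity of the facial nerve segment, was low in all libraries. It had 40.8, 40.4 and 38.7 normalised read counts in the Eed KO, against 47.7, 45.7 and 42.5 in its controls. All 3 knockout libraries were below all 3 controls, but by a ratio of means of 0.882 and on 122 against 136 reads, and the log2 fold change of −0.18 (−1.12 to 0.77) was not called (limma adjusted p = 0.990). Hoxb1 in the Ring1a/b 2KO had 19.2 and 41.2, against 15.6 and 19.9, with overlapping libraries and a log2 fold change of 0.65 (−0.90 to 2.19, limma adjusted p = 0.786).

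How often knockout and control libraries lay apart was counted against all genes. In the Eed KO, 0 of 10 were higher in every knockout library, where 5.06% of all genes tested were, and 1, Hoxb1, was lower in every one, where 4.15% were. In the Ring1a/b 2KO, 3 of 10, Hoxb13, Hoxb7 and Hoxb2, were higher in both knockout libraries, where 21.4% of all genes were, and 0 were lower, where 21.5% were. The median log2 fold change of the 9 genes other than Hoxb13 was 0.30 in the Eed KO and 0.29 in the Ring1a/b 2KO, with 6 above 0 and 3 below in each, against a median over all genes of 0.01 and −0.00. The sign was the same in both comparisons for 8 of the 10 genes, 80.0%, and for 67.0% of 15096 genes tested in both.

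**Figure D2:**
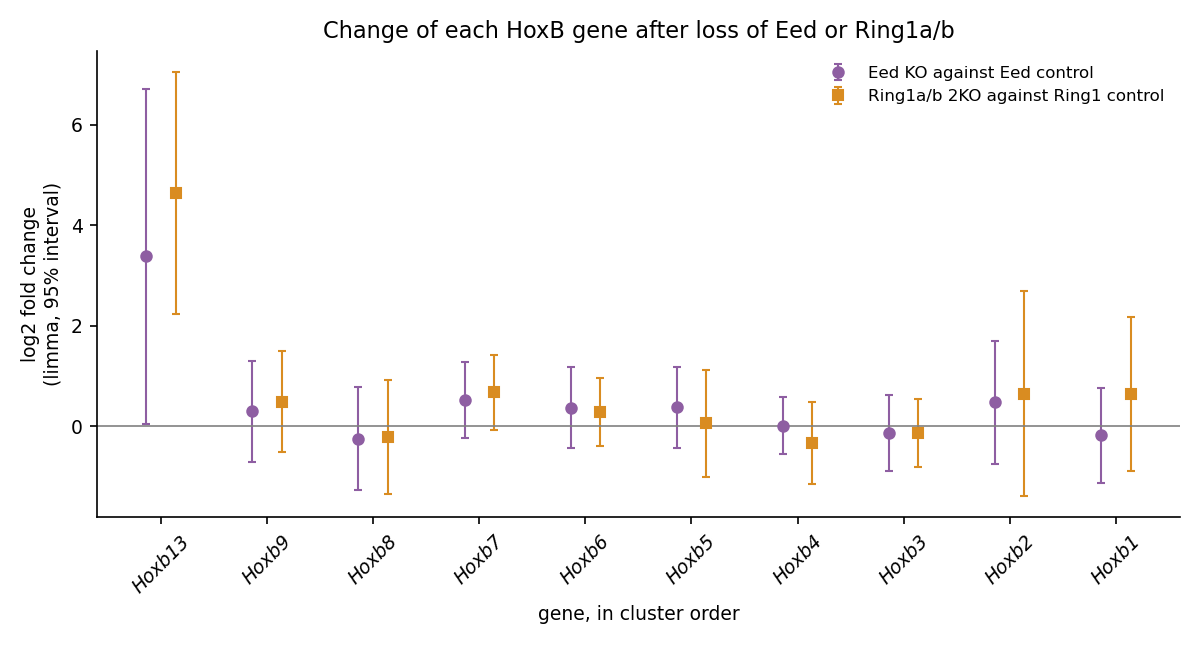
Log2 fold change (limma, on the count plus 1) of each HoxB gene in cluster order, knockout over its own control, with 95% intervals, for the Eed KO and the Ring1a/b 2KO. Hoxb13 is at 3.39 and 4.65, and the intervals of the other 9 genes hold 0 in both comparisons.

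The effects of the knockouts were set against each other in 1 fit of all 10 libraries. None of the 10 HoxB genes was called as differing between the Eed KO effect and the Ring1a/b 2KO effect, where 0% of 15096 genes were called by limma and 285 (1.89%) passed an unadjusted p of 0.05. For Hoxb13 the difference was −1.26 on the log2 scale, with an interval of −5.69 to 3.17 (limma adjusted p = 1.00). It was −0.82 for Hoxb1, with an interval of −2.35 to 0.71 (limma adjusted p = 1.00). Intervals this wide do not show that the knockouts act alike.

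Added up, the 10 genes gave 1734, 2009 and 1462 normalised read counts in the Eed KO, against 1629, 1666 and 1281 in its controls. The sums in the Ring1 table were 969 and 1128 in the Ring1a/b 2KO, against 875 and 954 in its controls. Only the Ring1a/b 2KO sums were all above those of their controls, and this separation rested on Hoxb13. Without Hoxb13 the sums were 948 and 1087 in the Ring1a/b 2KO, against 874 and 954, and the groups overlapped. Hoxb13 made 2.21%, 1.39% and 0 of the sum in the Eed KO and 2.23% and 3.66% in the Ring1a/b 2KO, and Hoxb3 to Hoxb7 together made 66.9% to 84.9% in the libraries of both tables.

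Divided by the length of the longest protein-coding transcript, the levels put the genes in a like order in knockouts and controls. In the Eed KO the order by mean normalised count per kb was Hoxb7 (225), Hoxb6 (121), Hoxb4 (118), Hoxb5 (91.8), Hoxb3 (87.6), Hoxb9 (65.8), Hoxb2 (61.1), Hoxb8 (45.3), Hoxb1 (19.2) and Hoxb13 (10.0). In its controls it was Hoxb7 (158), Hoxb4 (117), Hoxb6 (96.2), Hoxb3 (95.2), Hoxb5 (71.4), Hoxb8 (52.9), Hoxb9 (51.5), Hoxb2 (46.3), Hoxb1 (21.7) and Hoxb13 (0). From Hoxb7 down to Hoxb1 each gene's control libraries overlapped with those of the next, so neighbours in that order did not differ beyond their spread.

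The Ring1 libraries had the same genes at the top. In the Ring1a/b 2KO, Hoxb7 led with 144 normalised counts per kb, above Hoxb6 with 119, and then came Hoxb3 (54.6), Hoxb4 (50.4), Hoxb5 (46.9), Hoxb9 (45.6), Hoxb8 (17.5), Hoxb1 (14.5), Hoxb13 (14.3) and Hoxb2 (6.36). In its controls Hoxb6 (97.9) and Hoxb7 (90.0) overlapped, ahead of Hoxb4 (64.7), Hoxb3 (60.1), Hoxb5 (44.7), Hoxb9 (33.5), Hoxb8 (20.0), Hoxb1 (8.53), Hoxb2 (3.80) and Hoxb13 (0.118). Hoxb13 therefore stood last in the controls and, in the Ring1a/b 2KO, beside Hoxb1, whose libraries it overlapped.

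The genes on either side of the cluster were listed to see how far along the chromosome a change reached, 5 on each flank. Of these 9 were tested, with median log2 fold changes of 0.15 in the Eed KO and 0.12 in the Ring1a/b 2KO. The authors' deposited tables called 0 of 10 in the Eed KO, where 0.707% of all genes were called higher. In the Ring1a/b 2KO, where 1.18% of all genes were called higher, they called 1 of 9 neighbours. That was Igf2bp1, an RNA-binding protein of fetal tissue on the Hoxb13 side, with 166 and 349.6 normalised read counts in the Ring1a/b 2KO, against 70.3 and 89.7 in its controls (authors' deposited adjusted p = 0.0375, limma log2 fold change 1.59, adjusted p = 0.272). In the Eed KO, Igf2bp1 had 356, 149 and 98.6, against 110.1, 76.1 and 96.1. Atp5g1, Ube2z and Snf8 lie between the cluster and Igf2bp1 and were not called. In the Ring1a/b 2KO, Atp5g1 had 615 and 821 against 577 and 610. Ube2z had 1407 and 945 there against 1367 and 1020, and Snf8 had 328 and 420 against 412 and 226. Ttll6, a tubulin-modifying enzyme and the neighbour nearest to Hoxb13, was too low to test, with 15.6, 1.04 and 7.10 in the Eed KO against 1.95, 0 and 0, and 3.71 and 8.97 in the Ring1a/b 2KO against 1.04 and 0.

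**Figure D3:**
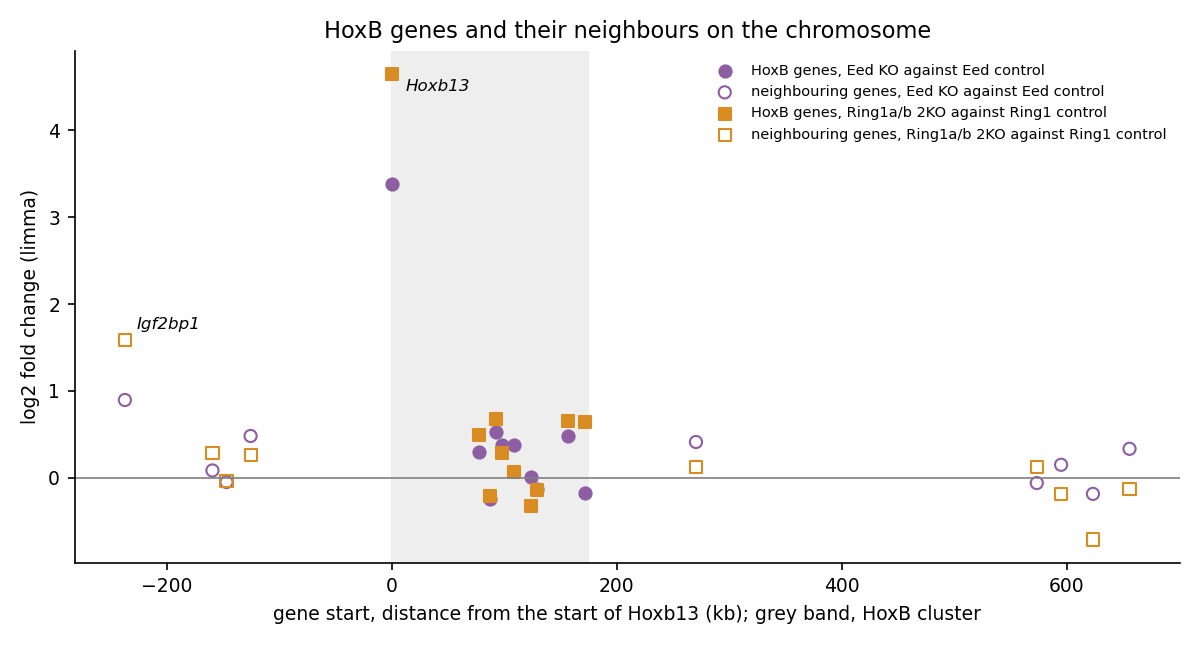
Log2 fold change (limma, knockout over its own control) of the HoxB genes, filled, and of the neighbouring genes that were tested, open, against the distance of each gene's start from the start of Hoxb13 in kb, with the cluster shaded, for the Eed KO (circles) and the Ring1a/b 2KO (squares). Hoxb13 lies at 3.39 and 4.65, the other HoxB genes between −0.33 and 0.68, and the highest neighbour is Igf2bp1, at 1.59 in the Ring1a/b 2KO.

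The other Hox clusters were counted by the same measure, a control mean of at least 10 normalised counts. It was reached by 9 of 10 HoxB genes in the Eed controls and 8 of 10 in the Ring1 controls, by 9 and 10 of 11 HoxA genes, by 6 of 9 HoxC genes in both, and by 1 of 8 HoxD identifiers in the Eed controls and 5 of 10 in the Ring1 controls. The authors' deposited tables called 3 HoxD genes (Hoxd9, Hoxd10 and Hoxd11) and Hoxc10 in the Eed KO, and Hoxd13, Hoxa10 and Hoxc10 in the Ring1a/b 2KO. Like Hoxb13, Hoxd10, Hoxd11 and Hoxc10 had at most 1 read in all Eed controls together, so they passed the filter on low values there only through their knockout libraries. Differences between clusters were not tested.

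**Figure D4:**
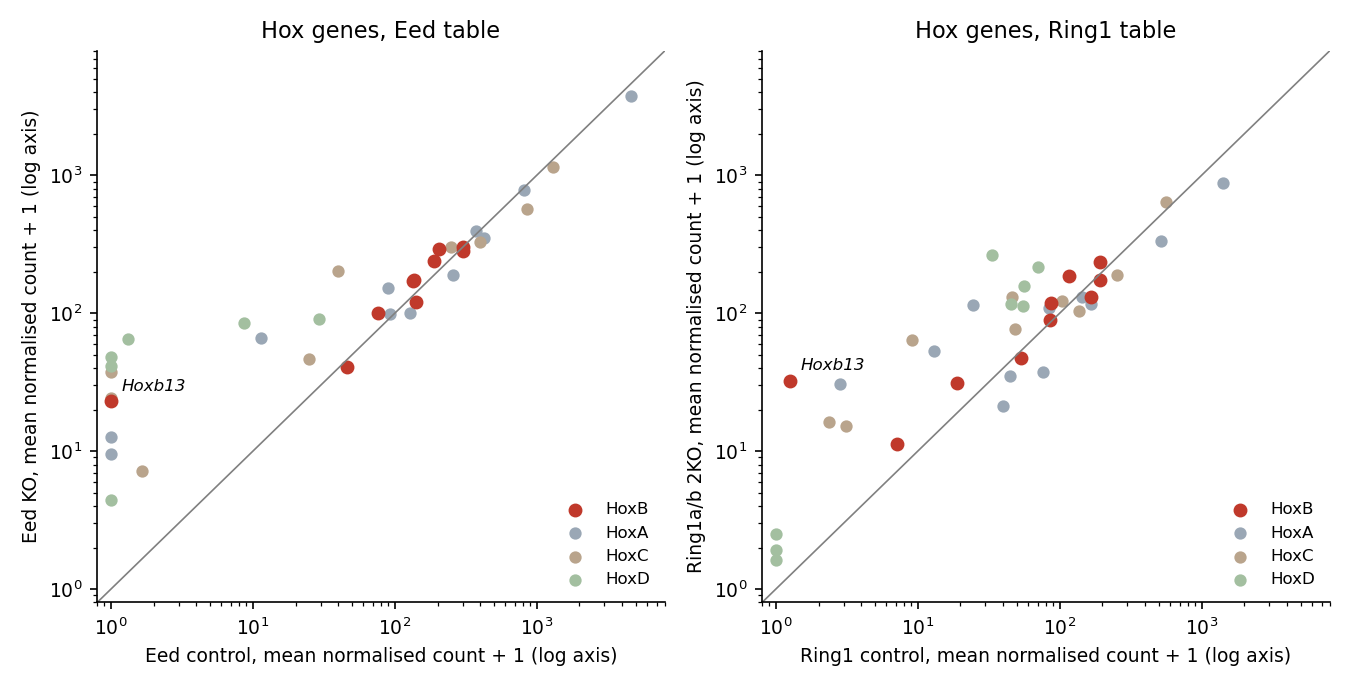
Mean normalised count plus 1 of each Hox gene in the knockout (vertical log axis) against that in its own control (horizontal log axis), coloured by cluster, for the Eed table and the Ring1 table, with the line of equal counts and with Hoxd4, which has more than 1 identifier, left out. The 9 HoxB genes transcribed in controls lie along the line and Hoxb13 lies above it, with means of 22.1 in the Eed KO against 0 in its controls and 31.4 in the Ring1a/b 2KO against 0.260 in its controls.

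Hoxb13 was compared with its paralogues, the genes at the 5′ end of the other clusters. Hoxd13 had 100.7, 19.7 and 0 normalised read counts in the Eed KO, against 0 in all controls, while the Ring1a/b 2KO had 226 and 305, against 16.7 and 48.2. Hoxa13 had 21.6, 4.15 and 0 in the Eed KO, against 0 in all controls, while the Ring1a/b 2KO had 46.4 and 57.4, against 4.17 and 19.9. Hoxc13, a gene of hair and nail keratins, had 346.5, 93.3 and 161 in the Eed KO, against 8.77, 53.8 and 53.6, and 60.0 and 199 in the Ring1a/b 2KO, against 18.8 and 71.5. The third Eed KO library thus had no read of Hoxb13, Hoxd13 or Hoxa13, and the first had the most of all 4 paralogues. The Hoxb13 reads were few beside those of Hoxc13 in the Eed KO and of Hoxd13 in the Ring1a/b 2KO.

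**Figure D5:**
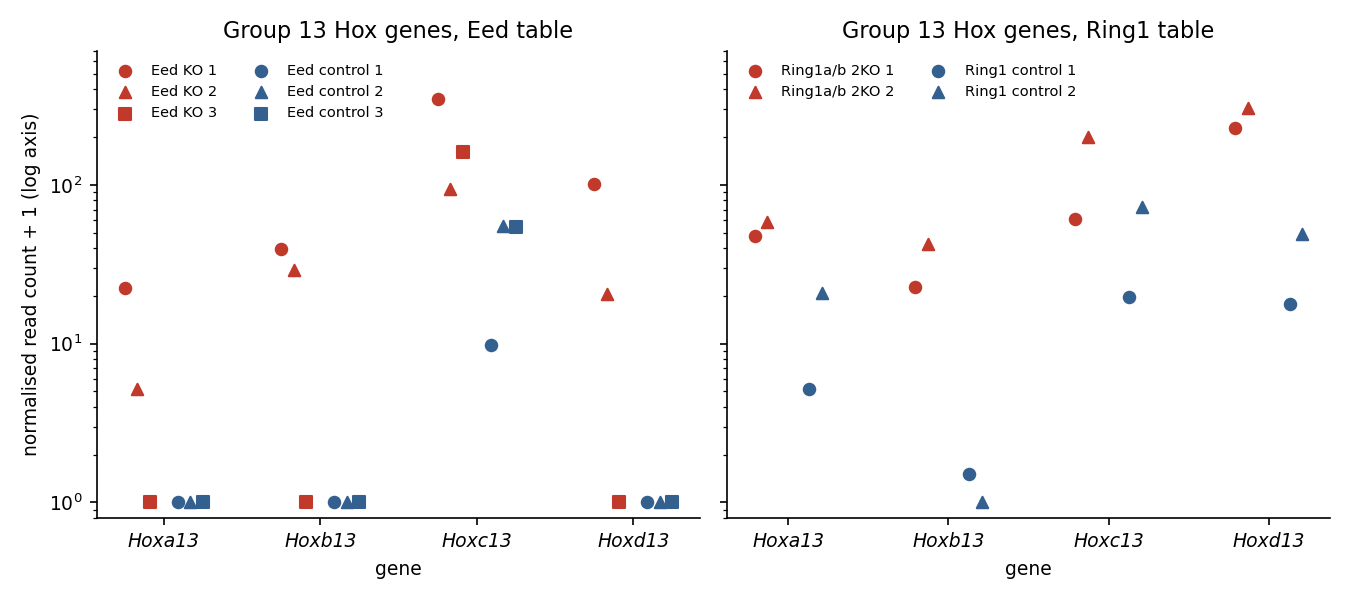
Normalised read counts (plus 1, log axis) of Hoxa13, Hoxb13, Hoxc13 and Hoxd13 in each library of the Eed and Ring1 tables, knockouts left of controls. Hoxb13, Hoxa13 and Hoxd13 are at 0 in the third Eed KO library and in all Eed controls.

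The partners and regulators of Hox proteins were read from lists. Of 9 TALE cofactors, the Pbx, Meis and Pknox proteins that bind DNA with Hox proteins, 0 were called in either comparison by limma or in the authors' deposited tables, and at an unadjusted limma p under 0.05 there were 0 in the Eed KO and 1, lower, in the Ring1a/b 2KO. Their median log2 fold changes were 0.04 in the Eed KO and 0.07 in the Ring1a/b 2KO. Of known upstream regulators of Hox genes, 15 were tested in the Eed KO and 16 in the Ring1a/b 2KO. The list includes the targeted genes Eed, Ring1 and Rnf2. Of its genes, 0 were called by limma or in the authors' deposited tables, with medians of −0.08 and −0.19. At an unadjusted limma p under 0.05 there were 0 in the Eed KO and 3 in the Ring1a/b 2KO, 1 higher and 2 lower, where 1597 of all 15310 genes tested passed in either direction. Kmt2a, the histone methyltransferase that maintains Hox transcription, averaged 14544 ± 2169 in the Eed KO and 17412 ± 1669 in its controls (SD, n = 3 each), and 3729 ± 364 in the Ring1a/b 2KO and 5407 ± 1094 in its controls (SD, n = 2 each), with limma adjusted p of 0.989 and 0.468.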

How the data were processed

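RNA of 10 libraries was amplified from 10 ng and read as 150-nt pairs, per the labels' protocols. Per the submitters' processing notes, the tools were kallisto 0.42.5 and DESeq2 3.11, with mm10 as the genome. The deposited tables hold normalised counts (a signal unit), log2 fold changes and p-values of the authors. The Wald statistic, a score in the deposited tables, was not used. In every library 100% of values were whole multiples of 1 step (tolerance 1e-06), which gave the reads.

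limma 3.58.1 (trend, robust; R 4.3.3) was fitted to log2(value + 1) of genes with a mean of at least 5, each knockout against its own control, with Benjamini-Hochberg adjustment over all genes and a threshold of 0.05. Fold changes on this scale understate low genes. Alternatives changed the filter (none, or a mean of 50), the pseudocount (0.5, 5) or the scaling (quantile), took the authors' table, ran edgeR 4.0.16 (quasi-likelihood, TMM) or DESeq2 1.42.0 on recovered reads, blocked on replicate number, or dropped 1 library at a time. The files turned out to hold normalised values, so limma and not a count test was the main test. Named genes were all 10 members, the called genes of each list, or its most abundant genes where none was called, of which 1 result is not reported here. Members and lists were chosen with earlier results of these data known. Floors (3 reads) and 95% counting intervals describe counting alone, because reads from amplified RNA repeat molecules.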

Additional observations from a re-analysis of the deposited data

How the results depend on the processing

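Hoxb13 had a positive log2 fold change in both knockouts under every alternative that tested it (a mean of at least 50 removed it in both, and edgeR in the Eed KO), but its call changed with the tool and the library. HoxB genes called in the Ring1a/b 2KO were 0 by limma and 1, Hoxb13, in the authors' deposited table and by DESeq2 on recovered reads (log2 fold change 6.20). In the Eed KO they were 0 to 1 when each library was left out. The 1 was Hoxb13 by DESeq2 without the third knockout library, the only one there with no Hoxb13 read, and so adds no support. Without single libraries the limma log2 fold change of Hoxb13 ran from 2.43 to 5.08 in the Eed KO and from 4.198 to 5.10 in the Ring1a/b 2KO, and the difference between the effects from −2.22 to 0.43, which turned without the third Eed KO library.

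Signs of small changes turned. Quantile normalization gave −0.10 for Hoxb4 in the Eed KO and −0.10 for Hoxb5 in the Ring1a/b 2KO. Leaving out libraries gave, in the Eed KO, −0.59 to 0.052 for Hoxb8, −0.093 to 0.10 for Hoxb4 and −0.37 to 0.12 for Hoxb3, and in the Ring1a/b 2KO −0.45 to 0.031 for Hoxb8, −0.33 to 0.46 for Hoxb5 and −0.66 to 0.010 for Hoxb4. The cause was not tested.

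Over all genes, calls in the Eed KO were 0 by limma, 127 in the authors' table and by DESeq2, and 0 to 4 without single libraries. In the Ring1a/b 2KO they were 6 by limma, 10 with no filter, 231 in the authors' table and by DESeq2, 0 by edgeR (1404 at an unadjusted p under 0.05), and 0 to 565 without single libraries, the 565 without the first knockout library, which leaves 1 knockout library whose spread is assumed to be that of the controls. With the replicate number as a block, 1 gene in the Eed KO and 36 in the Ring1a/b 2KO were called, none of them HoxB genes. The numbers did not pair the Eed samples (same-number deviations correlated at −0.20, 0.16 and 0.31, and the first knockout library was closest to another number), and the Ring1 table has only 2 pairs (0.23). A mean of at least 50 left 8 and 6 of the 10 HoxB genes in the test. Hoxb13 rests on 59 reads in each table, and Hoxb2 and Hoxb1 in the Ring1 table on 39 and 96.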

Other observations

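The summed counts of the 10 HoxB genes were set beside every other gene whose mean reached 50 in each table, Hox genes left out, as log2 deviations from the mean of the own controls over 10 libraries. Over 11272 genes, the mean absolute difference from the HoxB sum had a median of 0.29. The closest were Zfp207 (0.0616), Slc26a2 (0.0736), Ttc9c (0.0737), Psmf1 (0.0856) and Frrs1 (0.0862), a description over libraries that share their normalisation within a table. Among the 9 HoxB genes other than Hoxb13, the second Eed KO library was highest of the 6 Eed libraries for 4, and the second Ring1a/b 2KO library, the shallowest, was highest of the 4 Ring1 libraries for 5.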
